A study of Homo sapiens with 34 samples.

Results

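The genes for the protein subunits of the cytosolic ribosome were followed across chromatin maps of 3 proteins in U2OS cells, a human osteosarcoma line. Members were the protein-coding genes outside the Y chromosome whose symbol is RPL or RPS with a number and at most 1 letter A or X, together with RPLP0, RPLP1, RPLP2 and RPSA. This rule gave 77 genes of 19974, 46 of the large (60S) and 31 of the small (40S) subunit, spread over 21 chromosomes. The rule used symbols and no measured value.

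CUT&RUN, in which a tethered nuclease cuts out the DNA beside an antibody's target, was run on 500000 cells per reaction after a fixation of 1 min in 0.1% formaldehyde. The antibodies bound SMARCA1, an ATPase of the ISWI nucleosome remodellers, OGG1, the glycosylase that starts repair of oxidised guanine, or Orc6, a subunit of the origin recognition complex. Cells received the control siRNA siGl3 or siOrc6 for 72 h, were synchronised by a double thymidine block with a release of 3 h, and were then non-treated (NT) or given 5 mM H2O2 for 30 min. The 10 groups, each of n = 2 libraries with a region list, are SMARCA1 and OGG1 in siGl3 NT, siGl3 H2O2, siOrc6 NT and siOrc6 H2O2 cells, and Orc6 in siGl3 NT and siGl3 H2O2 cells. All groups therefore share the cell line, an siRNA transfection and the synchronisation. The series holds 34 samples, and the other 14 were not analysed here. Replicates carry a batch number, but nothing in the labels says whether they are separate cultures, so p-values measure the spread between these libraries. No expression was measured, so the knockdown could not be checked here.

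Ribosomal protein genes are among the most highly transcribed genes of a growing cell, and their products are made in equal amounts for assembly on ribosomal RNA in the nucleolus. Their transcripts usually begin with a C followed by a run of pyrimidines, the 5′ terminal oligopyrimidine (TOP) motif, through which mTORC1 and LARP1 control their translation. Many of them carry small nucleolar RNAs in their introns, and loss of a single copy of several of them causes Diamond-Blackfan anaemia. Free RPL5 and RPL11, bound to 5S ribosomal RNA, hold back MDM2 when ribosome assembly fails.

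Positions given further on are measured from the listed start of each gene, and most members with a listed start show the TOP motif there. RefSeq promoters of GRCh38.p14 were at hand for 62 members. They gave no entry for the other 15, among them RPL5, RPL7, RPL8, RPL23, RPL23A, RPL30, RPL37, RPS2, RPS15A and RPS20. The lines give the 100 bases before and 20 bases from the start, 5′ to 3′ on the gene's strand, with capitals for the TOP run. They were chosen as 4 members occupied in every library (RPLP0, RPL13A, RPL24, RPL41), 3 whose SMARCA1 regions appeared in siOrc6 libraries only (RPL12, RPL14, RPS15), 4 whose OGG1 regions appeared with H2O2 only (RPS7, RPS6, RPS23, RPL39) and the member with no region (RPS18).
RPLP0: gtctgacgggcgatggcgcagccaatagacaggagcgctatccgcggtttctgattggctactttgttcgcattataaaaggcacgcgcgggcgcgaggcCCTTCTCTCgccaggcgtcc
RPL13A: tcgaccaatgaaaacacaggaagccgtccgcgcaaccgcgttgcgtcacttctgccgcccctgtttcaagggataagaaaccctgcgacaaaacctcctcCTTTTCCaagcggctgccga
RPL24: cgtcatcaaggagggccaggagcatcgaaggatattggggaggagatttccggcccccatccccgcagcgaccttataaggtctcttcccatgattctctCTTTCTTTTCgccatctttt
RPL41: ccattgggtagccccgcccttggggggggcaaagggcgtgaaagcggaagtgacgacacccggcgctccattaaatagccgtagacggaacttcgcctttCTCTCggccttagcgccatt
RPL12: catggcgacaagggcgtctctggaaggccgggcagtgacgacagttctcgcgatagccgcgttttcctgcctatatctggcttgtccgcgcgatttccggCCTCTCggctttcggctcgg
RPL14: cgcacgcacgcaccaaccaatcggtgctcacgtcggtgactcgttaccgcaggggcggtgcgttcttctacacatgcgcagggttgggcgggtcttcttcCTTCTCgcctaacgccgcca
RPS15: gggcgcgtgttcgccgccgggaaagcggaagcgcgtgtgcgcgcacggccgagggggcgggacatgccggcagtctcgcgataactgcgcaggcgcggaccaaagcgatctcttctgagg
RPS7: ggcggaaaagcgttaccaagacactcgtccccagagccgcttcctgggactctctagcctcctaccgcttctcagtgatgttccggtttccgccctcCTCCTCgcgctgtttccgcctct
RPS6: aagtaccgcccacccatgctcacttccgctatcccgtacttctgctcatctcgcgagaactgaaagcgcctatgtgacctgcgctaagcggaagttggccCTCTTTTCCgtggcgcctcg
RPS23: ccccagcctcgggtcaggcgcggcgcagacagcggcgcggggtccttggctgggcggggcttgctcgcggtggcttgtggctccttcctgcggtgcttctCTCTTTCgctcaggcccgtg
RPL39: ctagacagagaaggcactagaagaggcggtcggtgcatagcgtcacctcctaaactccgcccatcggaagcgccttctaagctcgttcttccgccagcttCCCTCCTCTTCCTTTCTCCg
RPS18: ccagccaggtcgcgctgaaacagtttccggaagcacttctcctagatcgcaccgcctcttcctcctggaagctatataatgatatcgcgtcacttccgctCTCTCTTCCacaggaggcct

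These stretches lie at chr12:120201092-120201211 on the minus strand (RPLP0), chr19:49487508-49487627 on the plus strand (RPL13A), chr3:101686699-101686818 on the minus strand (RPL24) and chr12:56116533-56116652 on the plus strand (RPL41). RPL12 lies at chr9:127451387-127451506 (minus), RPL14 at chr3:40457239-40457358 (plus), RPS15 at chr19:1438296-1438415 (plus) and RPS7 at chr2:3575160-3575279 (plus). RPS6 lies at chr9:19380217-19380336 (minus), RPS23 at chr5:82278335-82278454 (minus), RPL39 at chrX:119791611-119791730 (minus) and RPS18 at chr6:33271975-33272094 (plus). Each holds the promoter and the first bases of the transcript.

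A TOP run, counted as a C followed by at least 4 bases that are C or T, on the sense strand and beginning within 3 bases of the start, was found in 46 of 62 members (74.2%) and in 13.6% of 15812 genes with a promoter entry. In 42 of the 46 the run began at the start base itself, and its median length was 8 bases (5 to 19, the longest in RPL39). RPS15 had no such run at the listed start. Members with the run were occupied in a median of 16 of 20 libraries, and the other 16 members in 18. Over the whole 300 base promoter and both strands, TCTCGCG, seen in RPL12, RPS15 and RPS6 above, was in 24.2% of members and 4.88% of all genes, and CCGGAAG in 33.9% and 14.1%. AAGATGG was in 12.9% and 6.36%, TATAAA in 8.06% and 9.75%, GGGCGG in 54.8% and 58.3%, and the palindrome CACGTG in 4.84% and 8.82%. CCGGAAG and AAGATGG can share their letters AAG, and a match describes letters only. Median GC content was 59.0% in members and 62.7% in all genes.

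A gene with 1 kb on each side formed its window, a gene counted as occupied where a region of the library's list shared at least 1 bp with the window, and the percent covered is the share of this window inside regions. Lists held 6992 to 132408 regions, their read depth is unknown, and their lengths moved with treatment. The shortest list was SMARCA1 siGl3 NT replicate 1. OGG1 siOrc6 NT replicate 2 differed from its partner in where its maxima lay at members, with a median position of -232.75 bp (upstream of the start) against 150.5 bp (downstream). The OGG1 siGl3 H2O2 replicates also lay on both sides of the start, at 78 and -137 bp, and both were kept throughout. Counts called are given with and without the 2 libraries SMARCA1 siGl3 NT replicate 1 and OGG1 siOrc6 NT replicate 2. All 4 SMARCA1 siOrc6 lists bear a mark of a second submission that no siGl3 list bears, so siRNA and submission cannot be told apart for SMARCA1.

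Ribosomal protein genes were widely occupied by all 3 proteins. The median member was occupied in 17 of 20 libraries, against 14 for all 19974 genes and 12 for the 10688 genes no longer than the longest member. The members are short, with a median length of 5011 bp (1335 to 27723) against 24170.5 bp for all genes, so their windows offer a region less room. Within the members, occupied libraries did not vary with length (Spearman's rho 0.004 across 77 genes, which are not independent replicates). The 77 mitochondrial ribosomal protein genes had a median of 16 libraries and 48 proteasome subunit genes 15.5. Large-subunit members had a median of 18 libraries and small-subunit members 16.

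**Figure D1:**
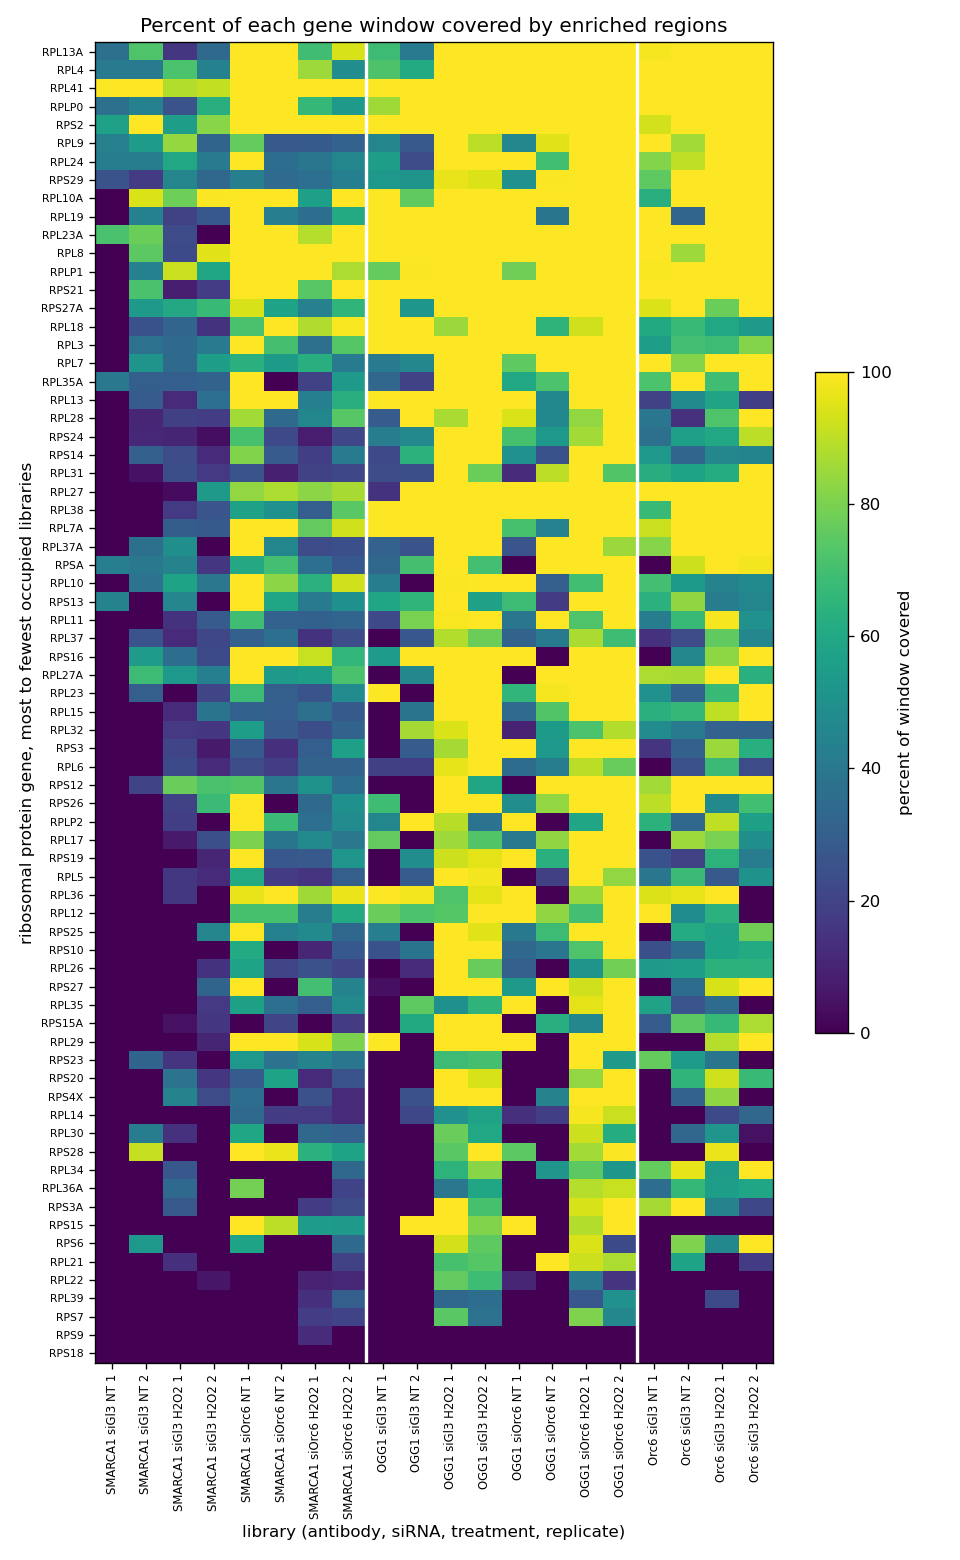
Percent of the window (gene with 1 kb on each side) covered by enriched regions, for 72 of the 77 ribosomal protein genes (rows, most to fewest occupied libraries) in 20 libraries (columns, by antibody, siRNA, treatment and replicate). RPL13A is among 8 genes with a region in every column, RPS9 and RPS18 in at most 1, and the OGG1 H2O2 columns are at or near 100% for most rows.

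A region was present in all 20 libraries at 8 members, 10.4% of them against 8.79% of all genes. These were RPLP0 of the P stalk, which recruits elongation factors, RPL4, which lines the peptide exit tunnel, RPS2, which sits at the mRNA entry channel, and RPL9, RPL13A, RPL24, RPL41 and RPS29. RPL41, the shortest member (chromosome 12, 56116633 to 56117967, plus strand), was covered over 88.4% to 100% in every library, and a neighbouring gene, ZC3H10, reaches into its window. RPL13A (chromosome 19, 49487608 to 49492308, plus strand) shares its window with no other protein-coding gene. Its percent covered by SMARCA1 was 36.8 and 72.4 in siGl3 NT, 15.9 and 34.5 in siGl3 H2O2, 100 and 100 in siOrc6 NT, and 69.5 and 93.9 in siOrc6 H2O2. By OGG1 it was 68.6 and 41.4 in siGl3 NT and 100 in each of the other 6 libraries, and by Orc6 it was 98.5 to 100. Within each treatment both siOrc6 SMARCA1 libraries thus lay above both siGl3 ones at this gene.

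Another 17 members were occupied in 19 libraries, 54 in at least 15 and 9 in at most 10. At the low end RPS18 had no region in any library, and RPS9 had 1. RPS9 was covered over 12.7% in SMARCA1 siOrc6 H2O2 replicate 1. Few of their neighbours had regions either. Of 18 other protein-coding genes within 150 kb of RPS18 (chromosome 6, 33272075 to 33276511) all 18 were without a region in every library, and of 16 near RPS9 (chromosome 19, 54200858 to 54207647) 12 were, with at most 2 libraries for the rest. Whether these stretches could give regions at all in the deposited lists was not tested.

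Other members of low occupancy were RPS7 with 6 libraries, RPL39 with 7, RPL22 with 8, RPL21 with 9 and RPS6 and RPS15 with 10. RPS15, at the decoding centre, was occupied in 4 SMARCA1 and 6 OGG1 libraries and in no Orc6 library. By role, the 3 P stalk genes had 16 to 20 libraries, RPL5 and RPL11 of the 5S particle 16 and 18, and the 3 exit tunnel genes RPL39, RPL17 and RPL4 had 7, 16 and 20. At the tunnel rim RPL31, RPL35, RPL23A and RPL19 had 14 to 19, and RPS27A, made as a fusion with ubiquitin, had 19. The decoding and mRNA channel genes RPS15, RPS23, RPS3 and RPS2 ranged from 10 to 20, and RPSA, RPS14 and RPS26 of the head and platform from 16 to 19. RPS6, the substrate of S6 kinase, had 10, and RPS4X, whose gene lies on the X chromosome, had 13. The 14 members linked to Diamond-Blackfan anaemia had a median of 16 (1 to 20), with RPS29 the highest.

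Members with a region in every library, or in none, were counted for each antibody. The same counts over all genes are not given here, so these describe the members only. They do not compare the antibodies, as Orc6 had 4 libraries against 8 for SMARCA1 and for OGG1, and list lengths differed. Of 77 members, 9 had a SMARCA1 region in all 8 SMARCA1 libraries and 1 in none. For OGG1 35 had a region in all 8 and 3 in none, and for Orc6 51 had one in all 4 and 6 in none. Among those without an Orc6 region were RPS15, RPL22, RPS7, RPS9 and RPS18. A snoRNA gene lies within 29 members, whose median percent covered over libraries was 59.7 against 48.0 for the other 48, while both had a median of 17 occupied libraries. A further protein-coding gene reaches into the window of 35 members, so regions there cannot be assigned to 1 gene. Occupancy was nearly the same with and without such a neighbour, with medians of 17 and 16.5 libraries.

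**Figure D2:**
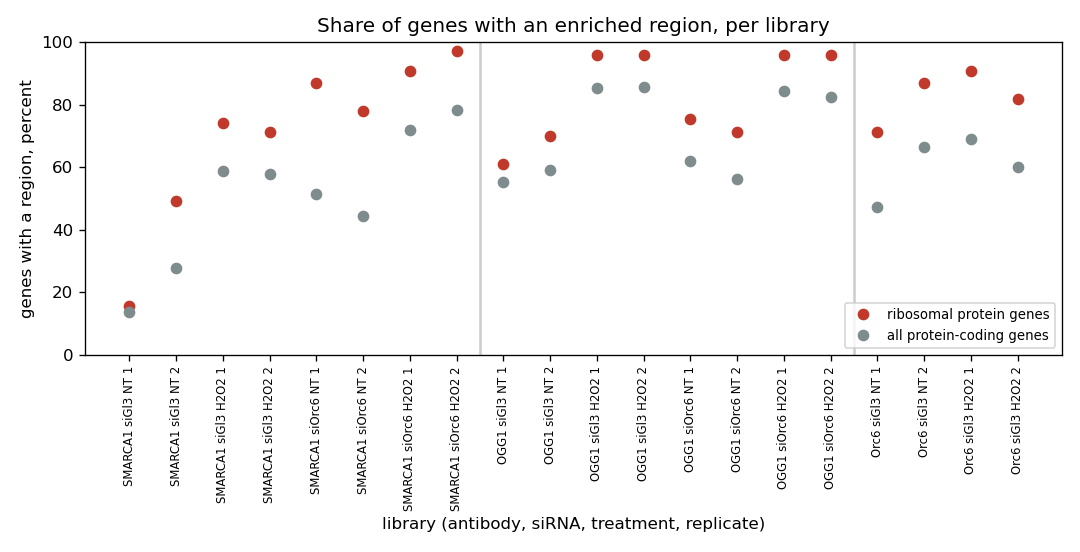
Percent of 77 ribosomal protein genes (red) and of 19974 protein-coding genes (grey) that overlap an enriched region, 1 point per library. The red point is above the grey one in all 20 libraries, by the least in SMARCA1 siGl3 NT replicate 1 (15.6% and 13.5%).

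In NT cells with siGl3, SMARCA1 regions overlapped 15.6% and 49.4% of members in the 2 libraries, and with siOrc6 87.0% and 77.9%. After H2O2 the shares were 74.0% and 71.4% with siGl3 and 90.9% and 97.4% with siOrc6. For OGG1 they were 61.0% and 70.1% in siGl3 NT and 75.3% and 71.4% in siOrc6 NT. In each of the 4 OGG1 H2O2 libraries the share was 96.1%, and 74 members had a region in all 4. RPS18 and RPS9 had none. Orc6 regions overlapped 71.4% and 87.0% of members in NT and 90.9% and 81.8% after H2O2, so these groups overlapped. The shares of all genes were lower in every library, at 85.3%, 85.8%, 84.4% and 82.4% in the OGG1 H2O2 libraries. For SMARCA1 the shares of all genes were 13.5% and 27.7% in siGl3 NT and 51.4% and 44.5% in siOrc6 NT. Shares over a chosen list were not tested.

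With H2O2, coverage was higher at 16 members and lower at none, over the 5 pairs of groups that differ in treatment (exact two-sided permutation within strata, Benjamini-Hochberg adjusted over all genes). Across all genes 41.9% were higher and 0.00501% lower, so the 20.8% of members called is below the background. Among the 10688 genes no longer than the longest member 2751 were higher in the same fit. The members' median difference was 18.3 points of percent covered, against 13.5 for all genes. At an unadjusted p under 0.05 (exact permutation), 26 members and 10945 of all 19974 genes were higher. The share of members was again below the background. Medians within each pair of groups ranged widely, as the plot of median differences shows.

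Among small-subunit genes 9 were called, among them RPS20, RPS4X, RPS27, RPS3, RPS12, RPS7, RPS10 and RPS29. RPS3, at the mRNA entry and itself a protein with reported roles in DNA repair (chromosome 11, 75399518 to 75422302), had SMARCA1 coverage of 0 and 0 in siGl3 NT, 21.0 and 7.4 in siGl3 H2O2, 28.5 and 14.0 in siOrc6 NT, and 30.0 and 56.6 in siOrc6 H2O2. Its OGG1 coverage was 0 and 29.0 in siGl3 NT and 86.5 and 100 with H2O2, and in siOrc6 100 and 53.2 in NT and 100 and 100 with H2O2. Its Orc6 coverage was 15.2 and 30.7 in NT and 84.8 and 62.6 with H2O2. RPS3 was higher with H2O2 in 9 of 10 same-batch pairs and lower in 0, by 37.8 points on average (adjusted p = 0.00891, exact permutation). The groups did not overlap for OGG1 in siGl3 cells, for Orc6 or for SMARCA1. KLHL35 reaches into its window.

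RPS20 had the largest mean difference, 47.7 points (62.9 with H2O2 and 15.2 in NT, adjusted p = 0.0319, exact permutation, higher in 8 of 10 pairs). It was followed by RPS4X with 45.1 points and RPS27, a zinc finger protein, with 44.0. RPS7 rose from 0 in all 10 NT libraries to a mean of 27.7 with H2O2, and its regions were confined to SMARCA1 siOrc6 and OGG1 libraries among those treated. RPS29 was occupied in all 20 libraries and rose by 19.8 points. RPS12 and RPS10 rose by 37.5 and 27.3. RAB13 and NUP210L reach into the window of RPS27, LRR1 into that of RPS29 and RPS10-NUDT3 into that of RPS10.

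Among large-subunit genes the 7 called were RPL6, RPL15, RPL37, RPL31, RPL14, RPL22 and RPL39. RPL6 (chromosome 12, 112405181 to 112418835) had OGG1 coverage of 18.9 and 18.5 in siGl3 NT, 96.4 and 100 in siGl3 H2O2, 35.5 and 42.0 in siOrc6 NT, and 89.5 and 76.9 in siOrc6 H2O2. Its SMARCA1 coverage was 0 and 0, 22.5 and 12.3, 23.0 and 18.1, and 31.7 and 31.9 in the same order, and its Orc6 coverage 0 and 25.0 in NT and 68.0 and 22.9 with H2O2. The H2O2 libraries lay above the NT ones for both SMARCA1 and OGG1 under each siRNA and overlapped them for Orc6. PTPN11 reaches into the window of RPL6. RPL6 rose by 37.1 points and RPL15, which shares its window with NKIRAS1, by 36.9 (adjusted p = 0.00891 for both, exact permutation, higher in 9 of 10 pairs). RPL39, an exit tunnel protein, was at 0 in all 10 NT libraries and averaged 21.4 with H2O2 (adjusted p = 0.0199). RPL22, a protein also bound by a viral RNA and deleted in some leukaemias, averaged 1.09 in NT and 22.7 with H2O2. RPL37, RPL31 and RPL14 rose by 28.5, 28.5 and 27.7 points. TBC1D8 reaches into the window of RPL31.

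With the batch number as a block, 4 members stayed past the threshold against a background of 20.5% higher and 0 lower: RPS3, RPL6, RPL15 (adjusted p = 0.0337 each) and RPS15A (adjusted p = 0.0413). The last was not called without the block (adjusted p = 0.0592). Within batch 1 the members' median difference was 19.0 points and within batch 2 it was 15.8, against 11.6 and 13.5 for all genes. Without the 2 libraries that stood apart 11 members were called, against 25.7% of all genes. Without Orc6 NT replicate 1 there were 9 (28.4% of all genes) and without OGG1 siOrc6 NT replicate 1 there were 10 (29.7%). No member and no other gene was called when each list was limited to its 6992 strongest regions, or to the strongest regions that cover 31.8 Mb. The H2O2 lists were mostly longer than the NT ones, and the part of list length in the calls was not tested beyond this.

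**Figure D3:**
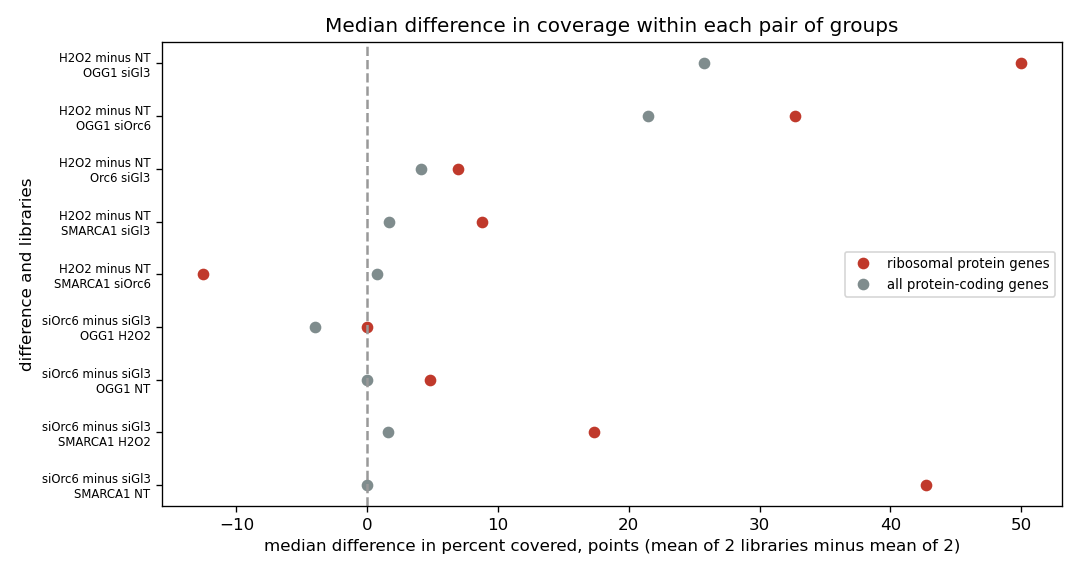
Median difference in percent covered (x axis, points, mean of 2 libraries minus mean of 2) for 77 ribosomal protein genes (red) and 19974 genes (grey), for H2O2 minus NT in 5 pairs of groups and siOrc6 minus siGl3 in 4. For H2O2 the red points run from 50.0 in OGG1 siGl3 to -12.6 in SMARCA1 siOrc6, and for siOrc6 from 0 in OGG1 H2O2 to 42.7 in SMARCA1 NT.

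For OGG1 in siGl3 cells the members' median difference with H2O2 was 50.0 points against 25.7 for all genes, and 44 members had both H2O2 libraries above both NT ones, with 1 below. All genes showed these patterns in 65.5% and 1.14%. In siOrc6 cells it was 32.7 against 21.5 points, with 32 members above and 0 below (48.3% and 0.0901% of all genes). Many members already had full coverage without H2O2, and 15 and 17 members had a difference of exactly 0. For Orc6 the median difference was 6.91 against 4.11 points, with 17 above and 7 below (30.4% and 1.59%). For SMARCA1 in siGl3 cells it was 8.75 against 1.66, with 24 above and 3 below (34.4% and 1.42%).

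For SMARCA1 in siOrc6 cells the members' difference had the opposite sign. There 54 of 77 members had a negative difference, and the share of all genes with that sign is not given here. The median difference with H2O2 was -12.6 points against 0.74 for all genes. Without overlap 20 members lay below and 7 above (8.77% and 28% of all genes). At the same time more members were occupied, 90.9% and 97.4% against 87.0% and 77.9%. The regions themselves were narrower with H2O2: at occupied members the median region measured 9466 and 6044 bp in NT and 2878 (2877.5) and 3157 bp with H2O2. At all occupied genes the same medians went from 6333.5 and 4739 bp to 2525 and 2663 bp, and at members in siGl3 cells from 3353 and 3223.5 bp to 1762 and 2075 bp. RPL4 had 100 and 100 in siOrc6 NT and 85.3 and 49.2 with H2O2, and RPLP0 100 and 100 and then 66.7 and 54.2. RPS21 had 100 and 100 and then 74.0 and 100, so its groups met at full coverage. The H2O2 difference in SMARCA1 minus that in OGG1 was tested per gene (chosen after the data had been seen): 0 members and 0 of all genes passed, the smallest adjusted p of a member was 0.223 (exact permutation), and the median was -40.7 points for members and -20.2 for all genes.

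Under the gene test on presence of a region, 8 members were occupied in all 4 OGG1 H2O2 libraries and in none of 4 OGG1 NT libraries (Fisher's exact test, two-sided, adjusted p = 0.0323 over genes that can pass). These were RPS7, RPS3A, RPS23, RPS20, RPL30, RPS6, RPL36A and RPL39. They make up 10.4% of members, and 7.84% of all genes showed this pattern, so the share was near the background. None showed the reverse, as for all genes (0). Of the mitochondrial ribosomal protein genes 5 of 77 and of the proteasome genes 3 of 48 showed it.

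RPS7, whose protein binds MDM2, had OGG1 coverage of 74.5 and 37.3 in siGl3 H2O2 and 80.5 and 46.3 in siOrc6 H2O2. RPS3A had 100 and 70.8, and 93.8 and 100. RPS23, at the decoding centre, had 68.5 and 70.7, and 100 and 53.9. In these 3 genes coverage went from none to more than 37% of the window in each treated library. RPS20 had 100 and 93.8, and 83.6 and 100. RPS6 had 93.7 and 75.4, and 94.3 and 22.4. RPL36A had 39.7 and 58.7, and 88.8 and 91.5, with BTK and the read-through gene RPL36A-HNRNPH2 in its window. RPL30 ranged from 59.5 to 92.5 and RPL39 from 27.2 to 50.4, with the lowest top value of the 8. SMARCA1 regions at RPS7, RPS3A and RPL39 were likewise in H2O2 libraries only (2, 3 and 2 of 4), and at the other 5 genes they were in NT libraries too. Orc6 had NT regions at 6 of the 8 genes, none at RPS7 in any library and 1 at RPL39 with H2O2. RPS23 had Orc6 coverage of 76.5 and 55.4 in NT, and RPS6 had SMARCA1 coverage of 53.2 in siGl3 NT replicate 2.

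**Figure D4:**
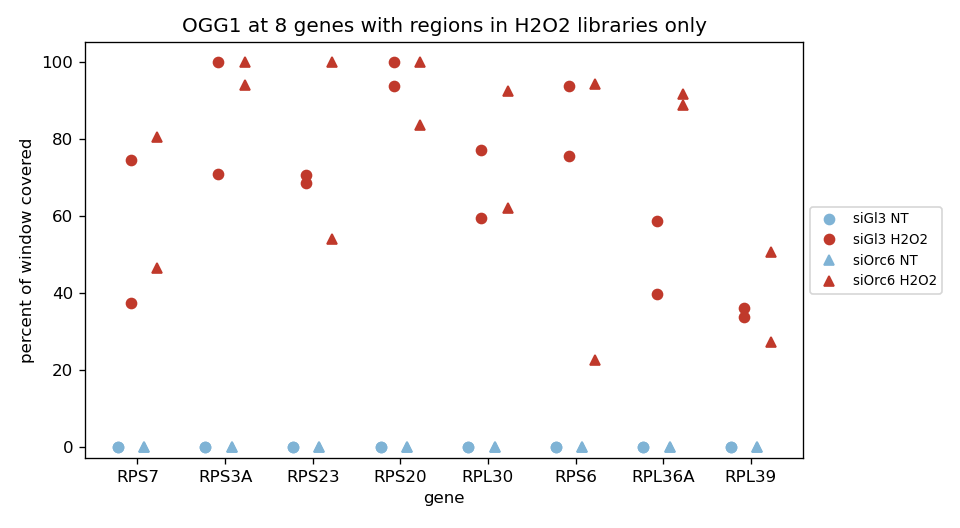
Percent of the window covered by OGG1 regions (y axis) at 8 ribosomal protein genes (x axis), 1 point per library, circles for siGl3 and triangles for siOrc6, blue for NT and red for H2O2. All NT points are at 0 by the choice of genes, and the H2O2 points run from 22.4 (RPS6, siOrc6) to 100.

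Without any 1 of the 4 H2O2 libraries 0 members and no other gene were called (smallest adjusted p of a member 0.0599 to 0.0651, Fisher's exact test). Leaving out a library lets more genes enter the adjustment, so this loss cannot show that the 8 calls rest on any 1 library. Without OGG1 siOrc6 NT replicate 2 there were 11, against 13.5% of all genes. With the batch number as a block the exact sign test over 4 pairs cannot go below p = 0.125, so none was called, and no gene was called with lists of equal region number or equal covered bases. For SMARCA1 with H2O2 no member had the all-or-none pattern in either direction, against 5.02% and 0.02% of all genes, none of which passed (smallest adjusted p 0.0586, Fisher's exact test). For Orc6, RPL14 and RPL29 had regions in both H2O2 libraries and neither NT library, against 1.95% of all genes, and no member had the reverse (0.31%). RPL29 had 88.8 and 100, and RPL14 had 22.0 and 33.1. With 2 libraries against 2 there was no test.

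The siOrc6 libraries were set against siGl3 within antibody and treatment. The 16 SMARCA1 and OGG1 libraries of this comparison are all also in the one for H2O2. No member and no other gene passed the test over 4 strata (0 higher, 0 lower, smallest adjusted p 0.882, exact permutation), and the smallest unadjusted p the design allows is 0.00154. At an unadjusted p under 0.05, 16 members were higher and 0 lower, and 747 and 31 of all genes; with the batch number as a block these were 10 members and 456 genes higher. The members' median difference was 18.4 points against 0.16 for all genes, and 73 of 77 members had a positive difference, as did 52.1% of all genes. For genes no longer than the longest member the median was 2.44. The gap to all genes depended on the window: it was 22.8 against 13.1 points within 1 kb of the start, and 16.6 against 6.31 at gene ends. Within batch 1 the median was 23.4 points, with 68 members positive (54.8% of all genes), and within batch 2 it was 13.3, with 69 positive (43.1%). Without the 2 libraries that stood apart it was 14.2 against 0. Medians of other lists were 17.3 points for 11 ribosomal proteins whose symbols the rule leaves out, 5.12 for 16 translation factors and other TOP genes, 5.11 for mitochondrial ribosomal proteins, 3.67 for 39 assembly factors, 1.41 for 15 RNA polymerase I genes, 1.33 for 6 genes of the p53 checkpoint and 0.89 for proteasome genes.

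The largest medians were those of SMARCA1, whose siOrc6 lists alone bear the second-submission mark. In NT cells the members' median difference was 42.7 points against 0 for all genes. A positive difference was seen in 67 members and a negative one in 0, and the shares of all genes by sign are not given here. Both siOrc6 libraries lay above both siGl3 libraries in 52 members (33.5% of all genes, with 1.82% below). In H2O2 cells the median difference was 17.4 points against 1.56, with 42 members above and 2 below (39.4% and 10.3%). For OGG1 in NT it was 4.79 points against 0 for all genes, with 13 above and 1 below (9.79% and 6.04%). For OGG1 in H2O2 it was 0 against -3.98, with 7 above and 3 below (2.66% and 22.8%), and 34 members had a difference of exactly 0. The siOrc6 difference in SMARCA1 minus that in OGG1, a test added after the data had been seen, was called for 0 members and 0 genes (smallest adjusted p of a member 0.194, exact permutation), with a median of 21.3 points for members and 5.95 for all genes. With lists limited to 31.8 Mb the members' median difference over the 4 strata was 0, and with 6992 regions each it was 14.0. The SMARCA1 siGl3 NT lists held 6992 and 11036 regions and the siOrc6 NT lists 14791 and 11012. The batch 2 pair was thus similar in region number, while its regions covered 43.6 and 71.8 Mb. In this pair 49.4% and 77.9% of members were occupied, and 27.7% and 44.5% of all genes, so the share rose for all genes too.

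RPS19, the gene most often mutated in Diamond-Blackfan anaemia, had SMARCA1 coverage of 0 and 0 in siGl3 NT, 100 and 27.0 in siOrc6 NT, 0 and 10.6 in siGl3 H2O2, and 27.8 and 52.1 in siOrc6 H2O2. Its OGG1 coverage was 0 and 49.2 against 100 and 63.5 in NT, and 92.4 and 95.8 against 100 and 100 with H2O2. The siOrc6 libraries lay above the siGl3 ones in each of the 4 pairs of groups, and the mean difference was 40.3 points (unadjusted p = 0.00154, the smallest possible, adjusted p = 0.882, exact permutation, 8 of 8 pairs). RPL13A had a difference of 36.7 points, RPS3 of 29.8, RPL12 of 34.6 and RPL14 of 21.8, none past the adjusted threshold.

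RPL12, RPL14 and RPS15 had a SMARCA1 region in all 4 siOrc6 libraries and in no siGl3 library. This pattern was seen in 2.26% of all genes and the reverse in 0.0751%, and no gene reached the threshold (Fisher's exact test, adjusted p = 0.126). With lists of equal region number 4.82% of all genes passed as higher with siOrc6 and 0.335% as lower, and 0 members. RPL12, next to the P stalk on the ribosome, had 71.0 and 71.0 in siOrc6 NT and 42.2 and 61.0 in siOrc6 H2O2, while OGG1 covered it over 70.2% to 100% in all 8 libraries. RPS15 had 100 and 90.0, and 55.3 and 53.6. RPL14 had 34.7 and 17.2, and 17.1 and 12.0. OGG1 was thus present at RPL12 without siOrc6, while RPS15 had no OGG1 region in siGl3 NT replicate 1 and siOrc6 NT replicate 2. LRSAM1 reaches into the window of RPL12. For OGG1 no gene had the all-or-none pattern between siRNAs in either direction (0).

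**Figure D5:**
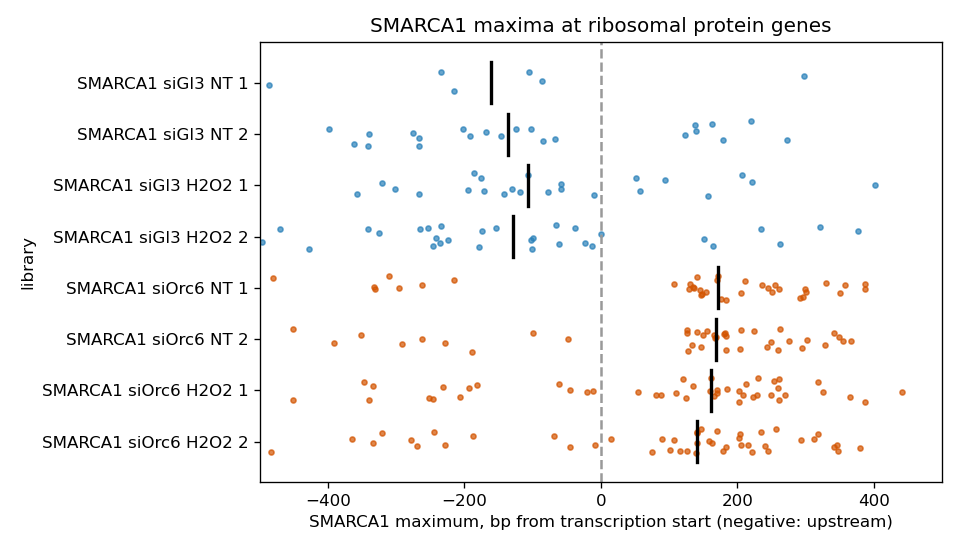
Distance of the SMARCA1 maximum from the transcription start (x axis, bp, negative upstream) at ribosomal protein genes, 1 row per library, siGl3 in blue and siOrc6 in orange, 1 point per gene with a maximum within 500 bp. Black bars are medians, -161 to -107.5 bp in the siGl3 rows and 141.5 to 171 bp in the siOrc6 rows.

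The place of the SMARCA1 maximum at the start of these genes also differed between siRNAs. In each library the region of highest maximum signal in a member's window was taken, and its stretch of maximum signal was placed relative to the start. Maxima within 500 bp of the start made up 51.1% to 83.0% of members with a region and a listed start. Their median position was -161, -136, -107.5 and -128.75 bp in the siGl3 libraries, all upstream, and 171, 168.5, 161.5 and 141.5 bp in the siOrc6 libraries, all downstream. The siOrc6 lists are those with the second-submission mark, so siRNA and submission cannot be told apart here. The mean of medians was -133 ± 22.1 bp (SD, n = 4) with siGl3 and 161 ± 13.4 bp (n = 4) with siOrc6. From 16.7% to 31.8% of these maxima were downstream with siGl3 and 68.9% to 81.1% with siOrc6, so the 2 sets of libraries did not overlap. The values of -161 bp and 16.7% are those of SMARCA1 siGl3 NT replicate 1, which had only 6 such maxima, 1 of them downstream. All genes showed the same shift, from -100.5 bp to 135 bp, a difference of 235 bp (exact two-sided permutation p = 0.0556, the smallest that 4 against 4 within treatment allows), so it was not particular to ribosomal protein genes. At the members the difference was 294 bp, 285 to 303 bp without 1 library in turn, 246 bp for maxima within 250 bp and 211 bp within 1000 bp.

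Of 17 members with at least 2 such maxima under each siRNA, 8 had their median upstream with siGl3 and downstream with siOrc6, 2 had the opposite and 7 stayed on 1 side. RPSA, a 40S protein also described as a laminin receptor, went from -115.25 to 191 bp with 4 maxima in each set. RPLP0 went from -162.75 to 147 bp with 4 and 3 maxima, RPL11 from -341.5 to 219.5 bp and RPS23 from -143.5 to 165.5 bp. RPL9 had the opposite order, at 179.25 bp and -245.25 bp. RPL37A stayed downstream, at 179.25 and 193 bp. Orc6 maxima had medians of -276 to -139.5 bp in its 4 libraries, all upstream, and OGG1 maxima lay on both sides, from -232.75 to 177 bp.

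SMARCA1 covered less of the members than OGG1 under matched siRNA and treatment. The difference was called lower at 36 members and higher at 0, against 60.7% and 0.00501% of all genes, so the 46.8% of members was below the background. The median difference was -34.5 points against -26.1 for all genes and -31.4 for genes no longer than the longest member. Within 1 kb of the start the order was the opposite, at -18.6 for members and -25.6 for all genes. RPL38 (chromosome 17, 74203678 to 74210655) was covered over 100% in all 8 OGG1 libraries, and by SMARCA1 over 0 and 0 in siGl3 NT, 16.9 and 26.3 in siGl3 H2O2, 57.3 and 50.4 in siOrc6 NT and 29.8 and 74.4 in siOrc6 H2O2. Every SMARCA1 library was below every OGG1 library there, by 68.1 points on average (adjusted p = 0.0113, exact permutation, lower in 8 of 8 pairs). RPS24 differed by -56.5 points, RPL12 by -53.8, RPS3 by -51.4, RPS10 by -51.2, RPL3 by -50.7 and RPL11 by -50.6. With the batch number as a block 14 members were lower, against 35.3% of all genes and 0 higher, and without the 2 libraries that stood apart 25 were, against 50.6%. Without SMARCA1 siOrc6 NT replicate 2 there were 20 (44.1% of all genes) and without SMARCA1 siOrc6 H2O2 replicate 1 there were 23 (38.9%). With lists of equal covered bases no gene was called and the members' median was 4.03 points, the opposite sign.

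Regions at members were also ranked by total signal within each list, and the ranks at all occupied genes differed between lists as well. In the 4 OGG1 H2O2 libraries the strongest region at the median member stood at a percentile of total signal of 95.4 to 96.3, against 88.1 to 91.0 for all occupied genes. In SMARCA1 siGl3 NT the percentiles were 41.4 and 65.4 for members and 51.8 and 53.7 for all occupied genes, so the 2 libraries disagreed. In SMARCA1 siOrc6 NT they were 77.0 and 58.7 against 61.1 and 57.4, and in SMARCA1 siOrc6 H2O2 75.9 and 87.1 against 78.8 and 85.9, so there the members stood below all genes in 1 library and above in the other. Regions at members were also wide in OGG1 H2O2 libraries, with median widths of 19797 to 23719 bp against 8831 to 11323 bp for all occupied genes.

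The authors' deposited tables of windows, which give positions and no value, list the members in part. Their windows named up for SMARCA1 in NT siOrc6 cells overlap 47 members (61.0%) and 34% of all genes, and those named ns overlap 6 members (7.79%) and 10.5%. For H2O2 the authors' deposited table of up windows overlaps 33 members (42.9%) and 50.1% of genes, and that of ns windows 47 members (61.0%) and 44.5%. RPL12, RPL14, RPS15, RPS19 and RPL13A are among the 47 of the NT up table. The authors' deposited table of Orc6 regions for the series overlaps 46 members (59.7%) and 43.6% of genes. The sources used here do not say which libraries these tables compare, and the same libraries may underlie them, so they are no separate evidence.

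A few genes outside the family came closest to the members' median coverage over the 20 libraries. These 5 were TUBA1A, with a mean absolute difference of 8.81 points, SS18L2 with 9.07, CRYAB with 9.73, SLC35C1 with 9.77 and PIGS with 9.81. They were occupied in 18 to 20 libraries.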

How the data were processed

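The processed data were lists of enriched regions, each called in 1 library. Per the submitters' processing notes build hg38 and the tools SEACR 1.1, Bowtie2, DESeq2, DiffBind, SAMtools, deepTools and bedtools were used, without roles. Per the layout of the deposited files each region carries the authors' total and maximum signal, and as its normalization and control are not stated there, signal was used only to rank regions within a list and to place their maxima. Read counts and depth are unknown.

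Gene positions came from RefSeq on GRCh38.p14, without exons. Coverage was compared by exact permutation of labels within strata (7776 or 1296 arrangements) and presence of a region by Fisher's exact test, adjusted by Benjamini-Hochberg over all 19974 genes or over those that can pass, at a threshold of 0.05. Regions of a list did not overlap (0 cases). Replicate numbers are batch numbers in the labels, so same-numbered samples were taken as paired, although the correlations of their deviations ran from -0.53 to 0.48 and 13 of 45 pairs of groups were over 0.1. Tests were checked on simulated data. Members and lists were chosen with earlier results of these data known. The genes named are called members (at most 15 per direction by size, others after their values were seen), those occupied in all or the fewest libraries, those with a listed role, and the 5 non-members of smallest mean absolute difference from the members' median coverage. Alternatives covered windows, overlap, list length, blocks, gene length and libraries left out. Python 3.11.15, numpy 2.4.6, pandas 2.3.3, scipy 1.17.1 and matplotlib 3.10.9 were used. All 77 members entered every fit and count, and values of 5 of them are not reported singly here.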

Additional observations from a re-analysis of the deposited data

How the results depend on the processing

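With windows at gene ends, at the start, with lists of equal region number, of equal covered bases, or by presence of a region, members higher with H2O2 came to 0 in each (from 16), as they did for all genes, and to 7 among genes no longer than the longest member (14.6% of the 10688). For SMARCA1 below OGG1 the same 5 settings gave 15, 0, 0, 0 and 0 members (from 36), against 29.7% of all genes in the first and 0 in the others. With lists of equal length or bases the OGG1 H2O2 members came to 0 (from 8), as did all genes. With the batch as replicate block the counts were 4, 14 and 0, against 20.5% and 35.3% of all genes for the first 2. Orc6 members with regions without H2O2 only came to 1 at the start, 4 with equal region number and 8 with equal bases (from 0), and with H2O2 only to 1 with equal bases (from 2). Of all genes 0.31% and 1.95% had these Orc6 patterns with the full lists. Their shares under the other settings are not given here, so these Orc6 counts describe the members only. Mean shares of members occupied were 40.7% and 33.4% for SMARCA1 (from 70.5%), 71.3% and 47.7% for OGG1 and 69.5% and 53.6% for Orc6 (both from 82.8%) with equal region number and equal bases. The causes were not tested beyond these settings, which hold fewer regions.

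Leaving out 1 library in turn gave 9 to 24 members higher with H2O2, 20 to 41 lower for SMARCA1, 0 to 11 for OGG1 with H2O2, 2 to 11 Orc6 members with H2O2 only and 0 to 4 without. Of all genes 28.4% to 45%, 38.9% to 60.1% and 0% to 13.5% were called in the first 3 of these. Leaving out an Orc6 library leaves 1 in its treatment, and the shares of all genes with these Orc6 patterns are not given here. Mean shares of members occupied were 66.6% to 78.3% for SMARCA1, 80.9% to 85.9% for OGG1 and 80.1% to 86.6% for Orc6. All other counts were 0 throughout.

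The members with a positive and a negative difference numbered 67 and 9 with H2O2, against 47 and 20 with equal region number and 28 and 26 with equal bases. For siOrc6 they were 73 and 3, against 58 and 9, and 31 and 23, and for SMARCA1 minus OGG1 2 and 74, against 8 and 60, and 47 and 7. With the full lists 87.7% of all genes had a positive difference with H2O2, 52.1% with siOrc6 and 1.38% for SMARCA1 minus OGG1. The shares of all genes with the shortened lists are not given here, so those counts describe the members only. Among genes followed singly, those that turned with H2O2 were RPS29 at the start (-0.30), and RPL22 (-1.09) and RPL37 (-1.11) with equal region number. With siOrc6 they were RPS3 (-2.62) and RPL27 (-0.16) with equal bases. For SMARCA1 minus OGG1 RPL12 was at 10.5 with equal region number, and with equal bases RPS24 was at 11.0, RPL12 at 5.27, RPS3 at 2.62, RPL3 at 36.1, RPL11 at 3.58, RPS19 at 3.42, RPL31 at 1.40 and RPL15 at 7.22 points.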
